A study of Mus musculus with 2 samples.

Results

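The genes described here are 9 costimulatory members of the tumour necrosis factor (TNF) family and its receptor family: the receptors Tnfrsf4 (OX40), Tnfrsf9 (4-1BB), Tnfrsf18 (GITR), Cd27 and Cd40, and the ligands Tnfsf4 (OX40 ligand), Tnfsf9 (4-1BB ligand), Cd70 (the CD27 ligand) and Cd40lg (the CD40 ligand). They were chosen by symbol from the 32285 genes of the count tables, and each symbol was found there. The tables come from mice that received B16F10-OVA cells, a melanoma line that carries the model antigen ovalbumin, under the skin. The mice were then injected on days 10, 12, 14 and 16 with PBS, the vehicle control, or with UDSP-Hep, an agent that the sample labels name without describing. On day 19, 3 tumours of each group were taken, leukocytes were sorted by the pan-leukocyte marker CD45, and each group gave 1 library of single-cell RNA (10x Genomics). The labels give no age, sex or strain for the mice. With 1 library per group there was no replicate spread and no test of the treatment: each interval below covers counting error only, and a difference is one between these 2 libraries.

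Costimulatory TNF receptors sit on T and natural killer (NK) cells and amplify a signal that the antigen receptor has begun. Their ligands are found on dendritic cells, macrophages, B cells and activated T cells. The receptors' tails recruit TRAF adapters, which feed NF-kappaB and raise survival proteins. CD40 works in the other direction: it sits on antigen-presenting cells and is engaged by CD40 ligand on helper T cells. In tumours OX40, 4-1BB and GITR are known for their high levels on regulatory T cells, and 4-1BB also marks T cells that have recently met antigen.

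Tnfrsf4, Tnfrsf18 and Tnfrsf9, the receptors with the highest levels in regulatory T cells, all lie on the plus strand of chromosome 4 (GRCm38, the assembly of mm10). Tnfrsf4 spans chr4:156013843-156016612, Tnfrsf18 spans chr4:156026164-156028895, 9551 bases further on, and Tnfrsf9 spans chr4:150914562-150946102. Tnfrsf9 overlaps Camta1, and Tnfrsf18 overlaps the transcript Gm16008, both on the other strand. Cd27 lies at chr6:125232622-125237010 on the minus strand, where it overlaps Vamp1 on the other strand and a microRNA gene on its own. Cd40 lies at chr2:165055627-165072948, Tnfsf4 at chr1:161395409-161418410 and Cd40lg at chrX:57212143-57224042, all on the plus strand and free of other annotated genes. Tnfsf9 (chr17:57105325-57107757, plus strand, overlapped by Gm11110 on the other strand) and Cd70 (chr17:57145997-57149777, minus strand) are neighbours 38239 bases apart. No source used here says whether counting took strand into account. Whether the count of a gene holds reads of its partner on the other strand was not tested.

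RefSeq promoter windows (GRCm38.p6) were found for 4 of the 9 genes, in 5 windows. The stretches below belong to the 3 receptors that stood together in regulatory T cells. For Tnfrsf4 and Tnfrsf18 they are the longest stretch of the 250 bases before the start that lies in no annotated exon, at chr4:156013611-156013694 and chr4:156026072-156026163. For Tnfrsf9 it is a 30-base stretch at chr4:150927947-150927976, before the more downstream of its starts and inside an exon of another annotated transcript, with a match to the NF-kappaB motif (kappaB) in capitals. All read 5′ to 3′ on the plus strand.
Tnfrsf4: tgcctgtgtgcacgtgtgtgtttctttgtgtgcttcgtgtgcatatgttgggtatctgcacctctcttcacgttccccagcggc
Tnfrsf18: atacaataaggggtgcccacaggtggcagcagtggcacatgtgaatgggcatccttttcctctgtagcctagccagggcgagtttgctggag
Tnfrsf9: agagcagctGGGGATTTCCCaggaggccct
Both strands of the 5 windows were searched for kappaB, for TGANTCA (AP-1) and for TGTGGT (RUNX). The downstream Tnfrsf9 window held 2 overlapping kappaB matches and 1 match to TGANTCA, and the other 4 windows held no match to any of these motifs. Among 32851 promoter windows of the same length, 7.25% held kappaB, 6.75% TGANTCA and 14.0% TGTGGT. A match describes the letters only.

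The PBS library held 7379 barcodes with a median of 7890 UMIs (unique molecular identifiers, 1 per captured RNA molecule), and the UDSP-Hep library held 7872 with a median of 5641. After a filter on genes, UMIs and mitochondrial share, 7134 and 7675 cells remained, and 6012 and 5948 of them were placed in 1 of 18 classes by UMIs of marker genes, none of which is a member of the set. Cells with markers of more than 1 lineage (550, or 7.71%, and 788, or 10.3%) were left out as likely to hold more than 1 cell, and they held 38.8% and 40.4% of all Tnfrsf4 UMIs. Levels are given as counts per 1000000 UMIs of the class (CPM). Each UMI stands for 1 captured 3′ end, so levels of different genes need no scaling by length. Of all barcodes, 25 occurred in both libraries. Cells with neutrophil markers were more frequent in the UDSP-Hep library (611 against 44), and neutrophil marker RNA was also higher inside other classes there, from 4.09 to 45.7 CPM in CD8 T cells and from 138 to 203 in phagocytes; its part in the results was not tested.

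Tnfrsf4, Tnfrsf9, Tnfrsf18 and Cd27 were at their highest in regulatory T cells in both libraries, Cd40 and Tnfsf4 in mature dendritic cells, Cd40lg in conventional CD4 T cells and Tnfsf9 in conventional dendritic cells. Behind regulatory T cells, Tnfrsf4 ran in the PBS library from conventional CD4 T cells (438 CPM) to mature dendritic cells (137), CD8 T cells (93.4) and other T cells (35.5), with no overlap between the intervals of neighbours. In the UDSP-Hep library the order was conventional CD4 T cells (438), mature dendritic cells (87.1), other T cells (75.2) and CD8 T cells (51.7), and the intervals of mature dendritic cells and other T cells overlapped. Tnfrsf4 thus fell off steeply outside Foxp3+ and Cd4+ T cells, while Tnfrsf9 was spread over more lymphocytes. Tnfrsf9 in the PBS library stood at 371 CPM in conventional CD4 T cells, 346 in CD8 T cells, 263 in mature dendritic cells and 232 in NK cells, with overlapping intervals within the first pair and within the last. Tnfrsf18, the receptor of the GITR ligand, was also read in every T cell class and in NK cells. In the PBS and UDSP-Hep libraries it stood at 470 and 431 CPM in conventional CD4 T cells and 252 and 302 in other T cells. NK cells held 158 and 149.9 CPM and CD8 T cells 176 and 187. Cd70 was the scarcest ligand, with at most 14 UMIs in any class.

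**Figure D1:**
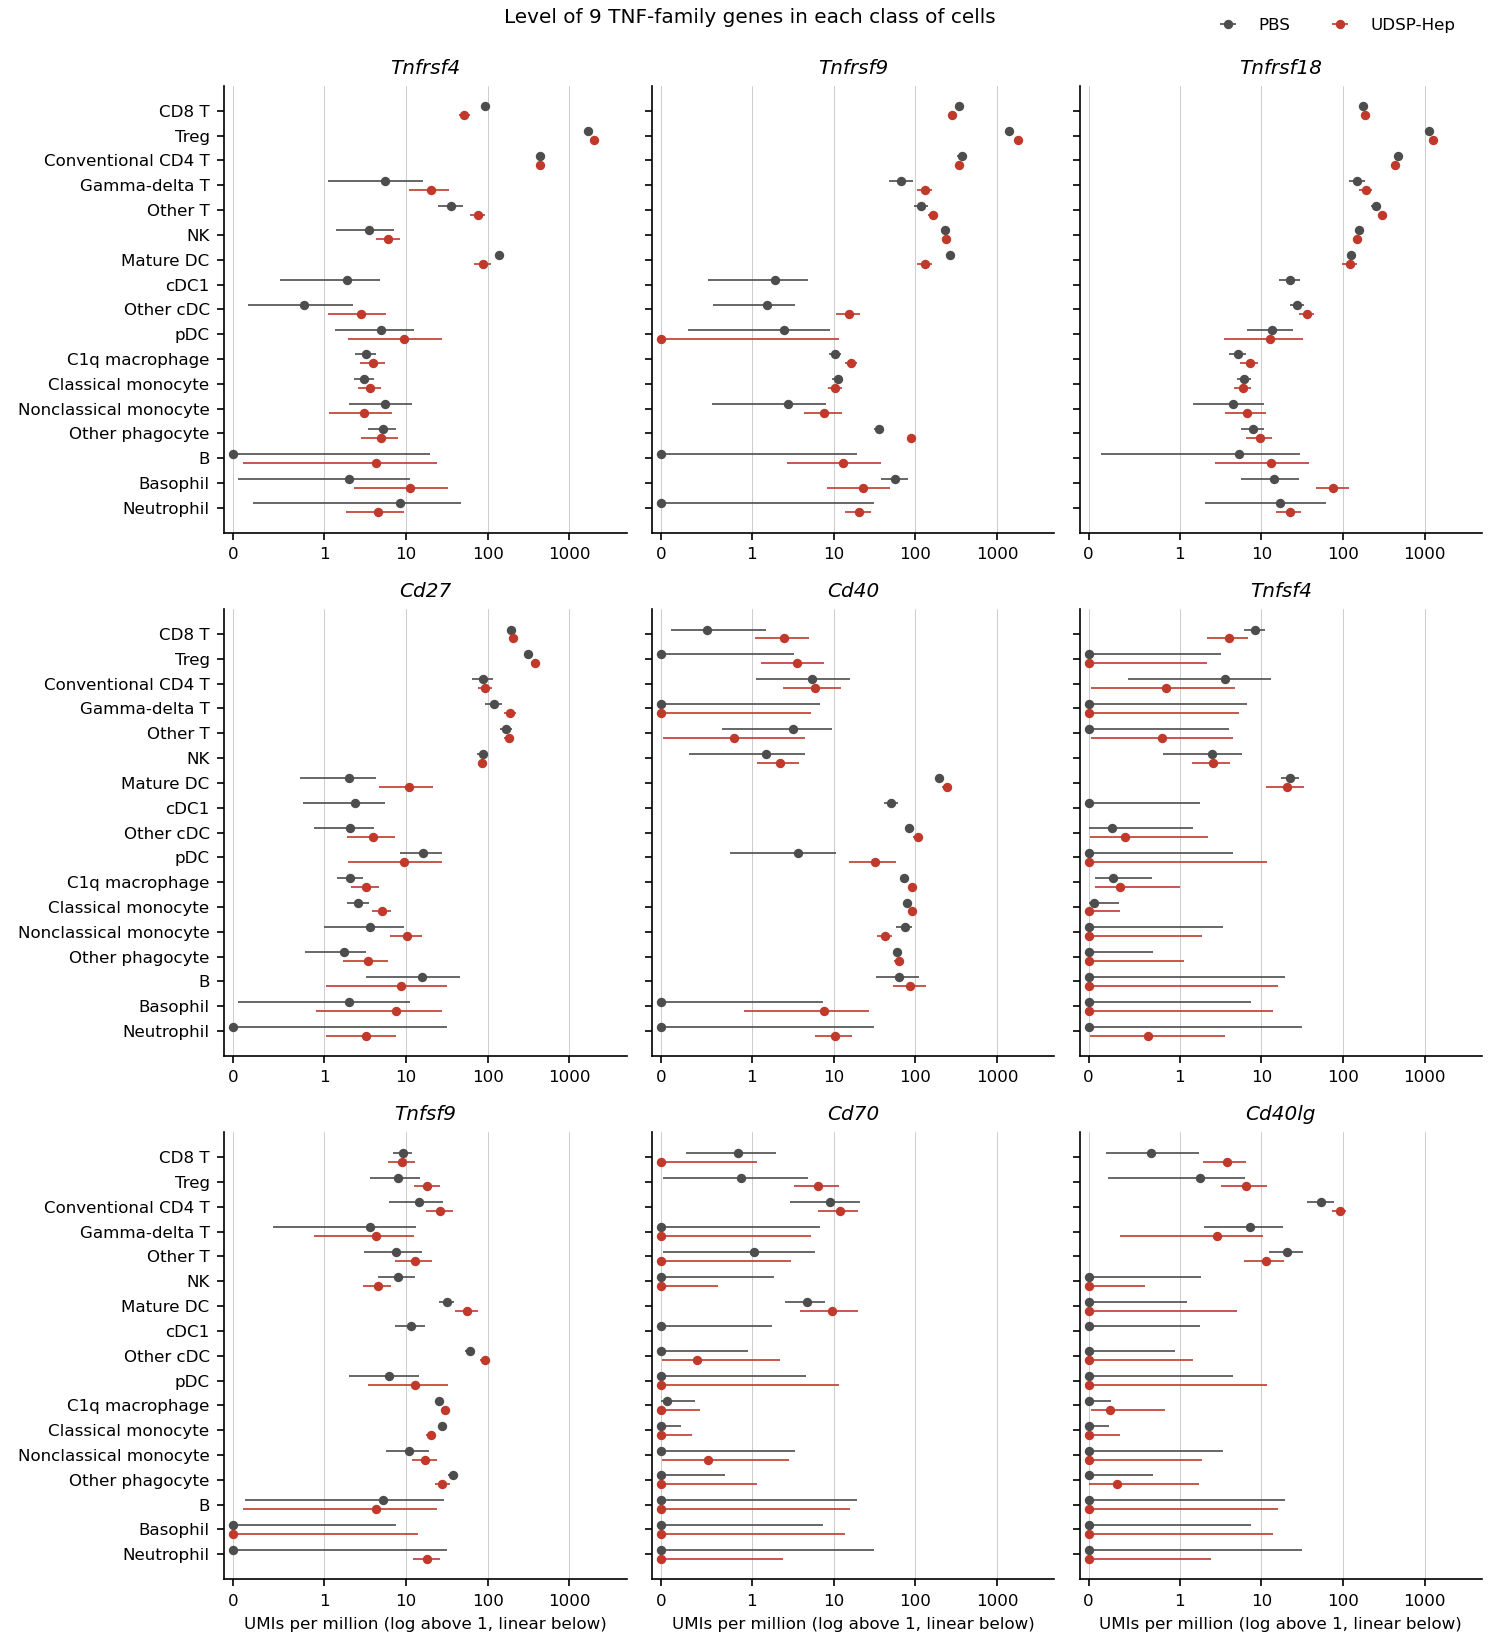
Level of each of the 9 genes in 17 classes of cells, as CPM (axis logarithmic above 1 and linear below), for the PBS (grey) and UDSP-Hep (red) libraries; points are the values of 1 library and bars are exact 95% Poisson intervals. Classes with under 30 cells in a library are not drawn. Regulatory T cells carry the 4 costimulatory receptors of T cells at the highest levels, from 311 CPM (Cd27) to 1999 CPM (Tnfrsf4), and Cd40 peaks in mature dendritic cells at 193 and 245 CPM.

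Regulatory T cells (156 in PBS, 223 in UDSP-Hep) had slightly higher summed levels of all 4 costimulatory receptors of T cells in the UDSP-Hep library. These cells suppress other T cells and were gated on Foxp3, whose level was alike in both libraries (737 and 747 CPM), as was that of Ikzf2 (2961 and 2872 CPM), which encodes their factor Helios. Tnfrsf4 stood at 1680.0 CPM (95% interval 1605 to 1757) in PBS and 1999 (1932 to 2067) in UDSP-Hep, a ratio of 1.19 (1.12 to 1.26). Tnfrsf9 stood at 1391 and 1781 CPM, a ratio of 1.28 (1.20 to 1.36). The Tnfrsf18 levels were 1111 and 1261 CPM, a ratio of 1.14 (1.06 to 1.22). None of these 3 receptors reached 1.5-fold, and for each the intervals of the 2 libraries did not overlap. Cd27, which supports T cell survival when it meets CD70, stood at 311 and 374 CPM, a ratio of 1.21 (1.06 to 1.38). Of the 5 members with at least 20 UMIs in these cells 1 was at least 1.5-fold higher and none was lower, against 11.2% of all genes higher and 6.55% lower. The median log2 ratio of the 5 was 0.27, and that of all genes 0.03. The member past 1.5-fold was the ligand Tnfsf9, at 7.94 and 18.3 CPM, from only 9 and 31 UMIs (ratio 2.31, 1.07 to 5.51). With every cell thinned to 1000 UMIs before summing, the Tnfsf9 ratio was 0.703.

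Detection per cell was read after thinning, because depth sets how often a gene is seen. After thinning to 1000 UMIs, Tnfrsf4 was read in 71.8% of regulatory T cells in PBS and 81.1% in UDSP-Hep, Tnfrsf18 in 63.5% and 72.5%, and Tnfrsf9 in 66% and 69.4%. Cd27 was read in 30.1% and 28.4%, against the order of its levels, so for Cd27 the 2 readings disagree on which library is higher. Phagocytes, set beside them for the background, gave 0.602% and 0.344% for Tnfrsf4, 0.575% and 0.731% for Tnfrsf18 and, with some Tnfrsf9-rich cells among them, 1.45% and 1.42% for Tnfrsf9, at median depths of 8659 and 9061.5 UMIs against 5383 and 5813 in regulatory T cells. The receptors also varied with division. In regulatory T cells with cell cycle transcripts (31 and 41 cells) Tnfrsf4 stood at 1337 and 1422 CPM, and in the others (125 and 182 cells) at 1924 and 2349 CPM. Tnfrsf9 was at 1032 and 1202 CPM in the cycling and at 1646 and 2131 CPM in the noncycling cells. Both receptors were thus lower, as CPM, in cycling cells of both libraries. Within noncycling cells the ratios between the libraries were 1.22 (1.14 to 1.31) for Tnfrsf4, 1.29 (1.20 to 1.39) for Tnfrsf9, 1.19 (1.10 to 1.30) for Tnfrsf18 and 1.30 (1.11 to 1.52) for Cd27. In cycling cells they were 1.06 (0.959 to 1.18) for Tnfrsf4, 1.17 (1.04 to 1.31) for Tnfrsf9, 0.925 (0.809 to 1.06) for Tnfrsf18 and 0.905 (0.699 to 1.17) for Cd27.

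The summed level of 5 genes of type 2 innate lymphoid cells (Gata3, Il1rl1, Il13, Il5 and Areg), some of which regulatory T cells also make, moved with the libraries in this class, from 587 to 1389 CPM, with 1 of the 5 genes at 0 in PBS and 2 in UDSP-Hep; its part in the ratios was not tested. Of the 1553 and 1736 cells with T cell markers, 428 and 441 also carried markers of another lineage, 377 and 394 of them phagocyte markers. The regulatory T cells among these (104 and 113) held 728 and 799.5 CPM of Tnfrsf4 and 538 and 838 CPM of Tnfrsf9, beside 246 and 248 CPM of the macrophage gene Csf1r. Both receptors were lower there than in the cells kept, and Tnfrsf9 was again higher in the UDSP-Hep library. Over the 9 alternative ways of gating, filtering and scaling, the ratios in regulatory T cells stayed above 1 for all 4 receptors, from 1.15 to 1.26 for Tnfrsf4, 1.24 to 1.31 for Tnfrsf9, 1.10 to 1.32 for Tnfrsf18 and 1.08 to 1.31 for Cd27.

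Conventional CD4 T cells, gated on Cd4 without Foxp3 (96 and 212 cells), held the same level of Tnfrsf4 in both libraries, while Cd40lg was higher in the UDSP-Hep library. The Tnfrsf4 levels were 437.9 and 438.1 CPM, a ratio of 1.00 (0.857 to 1.17). Tnfrsf9 stood at 371 and 344 CPM (ratio 0.927, 0.782 to 1.10), and 31 of the 206 PBS UMIs came from 1 cell. For Tnfrsf18, at 470 and 431 CPM, the ratio was 0.917 (0.788 to 1.07). Cd27 was at 86.5 and 93.0 CPM, a ratio of 1.08 (0.760 to 1.54). For each of these 4 receptors the interval of the ratio included 1. Cd40lg, the helper signal to CD40, stood at 54.1 and 90.5 CPM, from 30 UMIs in 21 cells and 107 UMIs in 52 cells, a ratio of 1.67 (1.11 to 2.60). Of all Cd40lg UMIs in the libraries, 31.9% and 46.3% lay in this class. Tnfsf9 was read at 14.4 and 26.2 CPM (8 and 31 UMIs), and 14 of the 31 came from 1 cell.

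In this class 2 of the 6 measured members, Cd40lg and Tnfsf9, were past 1.5-fold and higher, against 14.5% of all genes higher and 7.47% lower. The median log2 ratio was 0.05 over the members and 0.06 over all genes. Without the cell richest in Tnfsf9 its ratio was 1.13. With cells thinned to 1000 UMIs the Cd40lg ratio was 0.906 and the Tnfsf9 ratio 0.679. The class had Ikzf2 at 337 and 331 CPM, a gene also high in regulatory T cells, so cells without a detected Foxp3 UMI may be in it. When the 36 and 71 cells with a UMI of Ikzf2 were left out, Tnfrsf4 stood at 326 and 354 CPM and Tnfrsf18 at 373 and 356. Tnfrsf9 then stood at 149.8 and 232.9 CPM, a ratio of 1.55, and so on the other side of 1 from the ratio in the whole class. Cd40lg stood at 58.7 and 97.4 CPM, a ratio of 1.66 close to that of the whole class. The innate lymphoid gene sum stood at 407 and 1402 CPM here, with none of its 5 genes at 0; its part was not tested.

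CD8 T cells (542 and 467 cells), the cells that kill tumour cells, held less Tnfrsf4 and less Tnfrsf9 in the UDSP-Hep library and like levels of Tnfrsf18 and Cd27. Tnfrsf4 stood at 93.4 CPM in PBS and 51.7 in UDSP-Hep (549 and 165 UMIs), a ratio of 0.553 (0.462 to 0.659). Tnfrsf9 stood at 346 and 279 CPM, a ratio of 0.806 (0.744 to 0.872). For both, the intervals of the 2 libraries were apart. Tnfrsf18 was at 176 and 187 CPM (ratio 1.06, 0.958 to 1.17), and Cd27 at 191 and 205 CPM (ratio 1.07, 0.970 to 1.18). Over 10 alternatives in processing, the ratio ran from 0.795 to 1.10 for Tnfrsf18 and from 0.807 to 1.07 for Cd27. Those of Tnfrsf4 and Tnfrsf9 ran from 0.512 to 0.948 and from 0.759 to 1.27. Tnfsf4, a ligand that T cells can make after activation, was read from 49 and 13 UMIs, or 8.34 and 4.07 CPM (ratio 0.488, 0.243 to 0.913), of which 13 and 5 UMIs lay in 1 cell of each library. Tnfsf9 stood at 9.19 and 9.08 CPM. Thus 2 of the 6 measured members, Tnfrsf4 and Tnfsf4, were lower by 1.5-fold or more and none was higher, beside 11.1% of all genes lower and 14.6% higher. The median log2 ratio was -0.16 over the members and 0.05 over all genes. After thinning, a UMI of Tnfrsf9 was found in 18.1% and 14.2% of CD8 T cells, of Tnfrsf18 in 18.6% and 14.2%, of Cd27 in 18.6% and 16.1%, and of Tnfrsf4 in 5.72% and 3.22%. All 4 shares were above those of phagocytes. For Tnfrsf18 and Cd27 shares and levels ran opposite ways, so no order between the libraries is read for either gene.

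The make-up of the CD8 T cells, as called here, differed between the libraries. Cycling cells were 31.4% of them in PBS and 7.49% in UDSP-Hep. Cells leaning to exhaustion genes (Pdcd1, Tox, Havcr2, Lag3 and Entpd1) were 35.2% and 27.4%. Cells leaning to memory genes (Tcf7, Il7r, S1pr1, Lef1 and Ccr7) were 29.2% and 57.6%. States were called from UMI counts, with at least 3 cell cycle UMIs for cycling. Median depths were 7974.5 UMIs in PBS and 5471 in UDSP-Hep over all CD8 T cells, and 16219 and 16935 in cycling cells. The part of depth in the state shares was not tested. The lean is a comparison of 2 sums of UMIs and marks a range, not a type: 66 and 114 noncycling cells lay within 2 UMIs of the line, and 23 and 35 were tied and entered neither side. Tnfrsf4 was nearly confined to the first pair of states, at 113 and 123 CPM in cycling cells, 117 and 87.2 CPM in exhaustion-leaning cells and 3.03 and 10.5 CPM in memory-leaning cells. Tnfrsf9 was at 384 and 519 CPM in cycling cells, 474 and 548 in exhaustion-leaning cells and 41.5 and 73.5 in memory-leaning cells. Both receptors were therefore many times lower in memory-leaning cells of either library. Tnfrsf18 and Cd27 did not share that step: Tnfrsf18 was at 154 and 189.9 CPM in cycling, 218 and 227 in exhaustion-leaning and 167 and 173 in memory-leaning cells, and Cd27 at 163 and 137, 242 and 260.3, and 189 and 203 CPM.

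**Figure D2:**
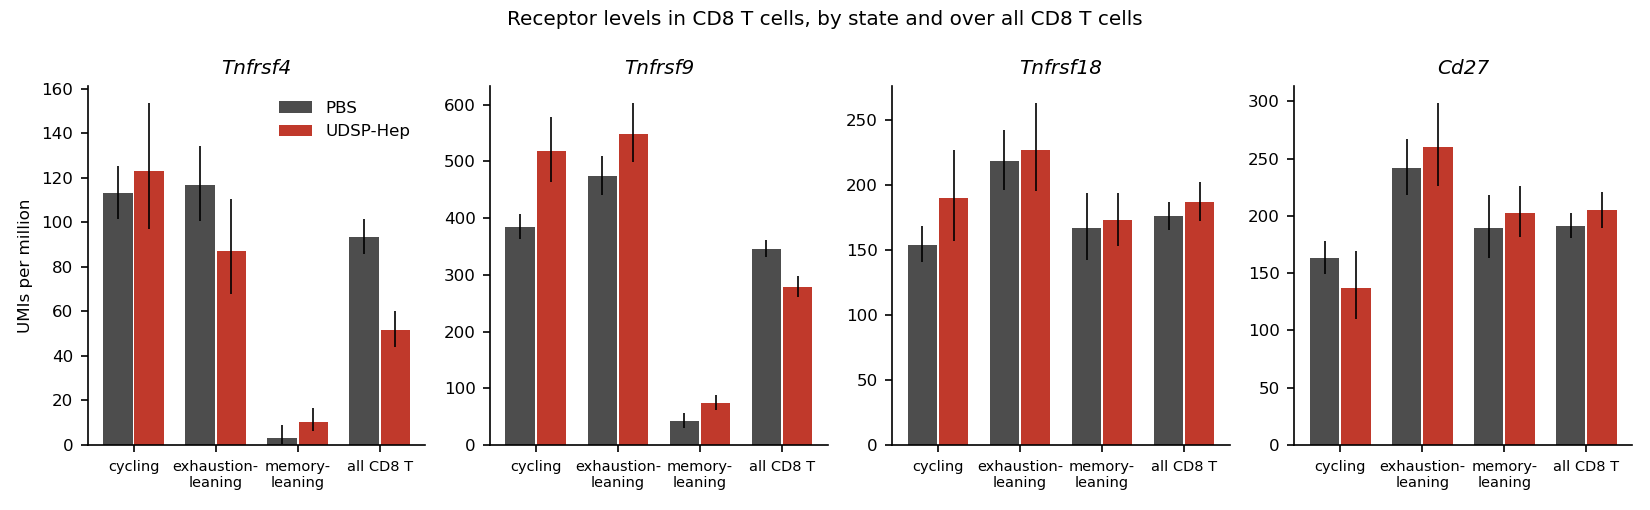
Levels of Tnfrsf4, Tnfrsf9, Tnfrsf18 and Cd27 in CD8 T cells by state and over all CD8 T cells, as CPM (linear axes from 0) with exact 95% Poisson intervals, for the PBS (grey) and UDSP-Hep (red) libraries. Tnfrsf9 is higher in the UDSP-Hep library in each of the 3 states, whereas over all CD8 T cells it is lower, at 279 against 346 CPM.

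Within each state Tnfrsf9 was higher in the UDSP-Hep library, opposite to its direction over all CD8 T cells. The ratios were 1.35 (1.19 to 1.53) in cycling, 1.16 (1.03 to 1.30) in exhaustion-leaning and 1.77 (1.23 to 2.59) in memory-leaning cells. With the 3 states weighed equally, Tnfrsf9 stood at 300.0 and 380.2 CPM, a ratio of 1.27. On the same weights the ratio of Tnfrsf4 was 0.948, that of Tnfsf4 1.03, that of Tnfrsf18 1.09 and that of Cd27 1.01, so none of the 6 measured members was past 1.5-fold. Within states the Tnfrsf4 ratio was 1.09 (0.839 to 1.39) in cycling and 0.748 (0.559 to 0.99) in exhaustion-leaning cells, where the interval excludes 1. In memory-leaning cells Tnfrsf4 came from 3 and 17 UMIs. The weighing was added after these values had been seen.

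NK cells, which kill without an antigen receptor, numbered 411 (PBS) and 1315 (UDSP-Hep) and held nearly the same levels of the 3 receptors they express in both. Tnfrsf9 stood at 232 and 239.7 CPM, a ratio of 1.03 (0.929 to 1.15). Tnfrsf18 stood at 158 and 149.9 CPM (ratio 0.95, 0.834 to 1.08) and Cd27, which marks less mature NK cells in mice, at 87.4 and 85.6 CPM (ratio 0.979, 0.822 to 1.17). Each interval lay within 1.5-fold of equality. Over 9 alternatives in processing, however, the Cd27 ratio ran from 0.655 to 1.01, while those of Tnfrsf9 and Tnfrsf18 stayed between 0.915 and 1.10. Tnfrsf4 was near the level of phagocytes, at 3.52 and 6.09 CPM (7 and 36 UMIs). Tnfsf9 was at 8.04 and 4.57 CPM (16 and 27 UMIs). With Tnfrsf4 1.5-fold or more higher (ratio 1.73, 0.760 to 4.61) and Tnfsf9 lower (0.568, 0.295 to 1.13), 1 and 1 of the 6 measured members were past that size, beside 8.71% and 5.45% of all genes, and both intervals included 1. The median log2 ratio was -0.01 over the members and 0.05 over all genes. Cd70 and Cd40lg had no UMI in NK cells of either library.

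Tnfrsf9 was also higher in the UDSP-Hep library in the remaining T cell classes. In gamma-delta T cells (106 and 112 cells), gated on Trdc, Tnfrsf9 stood at 67.5 and 130.6 CPM (37 and 91 UMIs), a ratio of 1.93 (1.31 to 2.92), and Cd27 at 119 and 188 CPM (ratio 1.59, 1.17 to 2.17). In T cells with neither Cd4, Cd8, Foxp3 nor Trdc (185 and 243 cells), Tnfrsf4 stood at 35.5 and 75.2 CPM, a ratio of 2.12 (1.41 to 3.25), and Tnfrsf9 at 117 and 166 CPM (ratio 1.41, 1.12 to 1.80). Of the 91 UDSP-Hep UMIs of Tnfrsf9 in gamma-delta T cells, 22 lay in 1 cell. In regulatory T cells Tnfrsf9 had run the same way (ratio 1.28). Its ratio was below 1 over all CD8 T cells (0.806) and in conventional CD4 T cells (0.927, 0.782 to 1.10).

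Cd40, the receptor by which helper T cells license antigen-presenting cells, was highest in mature dendritic cells, gated on Ccr7 and Fscn1 (209 cells in PBS and 56 in UDSP-Hep). It stood there at 193 CPM (577 UMIs) in PBS and 245 (180 UMIs) in UDSP-Hep, a ratio of 1.27 (1.07 to 1.51). The same direction was seen in the other conventional dendritic cells (292 and 204 cells, with high Cd209a), where Cd40 stood at 82.5 and 106 CPM (ratio 1.29, 1.09 to 1.52, and 0.966 after thinning), and in phagocytes (3661 and 2328 cells), where it stood at 73.9 and 83.4 CPM (ratio 1.13, 1.06 to 1.19). In cDC1, with 107 and 9 UMIs, Cd40 was at 50.9 and 34.2 CPM, a ratio of 0.671 (0.299 to 1.32). In phagocytes the median of all genes was itself shifted by 0.12 on the log2 scale. Among phagocytes, the C1q macrophages (73.6 and 89.8 CPM, ratio 1.22) and classical monocytes (78.8 and 91.9 CPM, ratio 1.17) went the same way, whereas nonclassical monocytes, the patrolling kind, held 73.9 CPM of Cd40 in PBS but 42.3 in UDSP-Hep (ratio 0.572, 0.416 to 0.787). Although their Cd40 level was below that of mature dendritic cells, phagocytes held 60.5% and 54.1% of all Cd40 UMIs of the libraries. Cd40 was read in 17.2% and 25.0% of thinned mature dendritic cells and in 6.71% and 7.52% of thinned phagocytes.

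**Figure D3:**
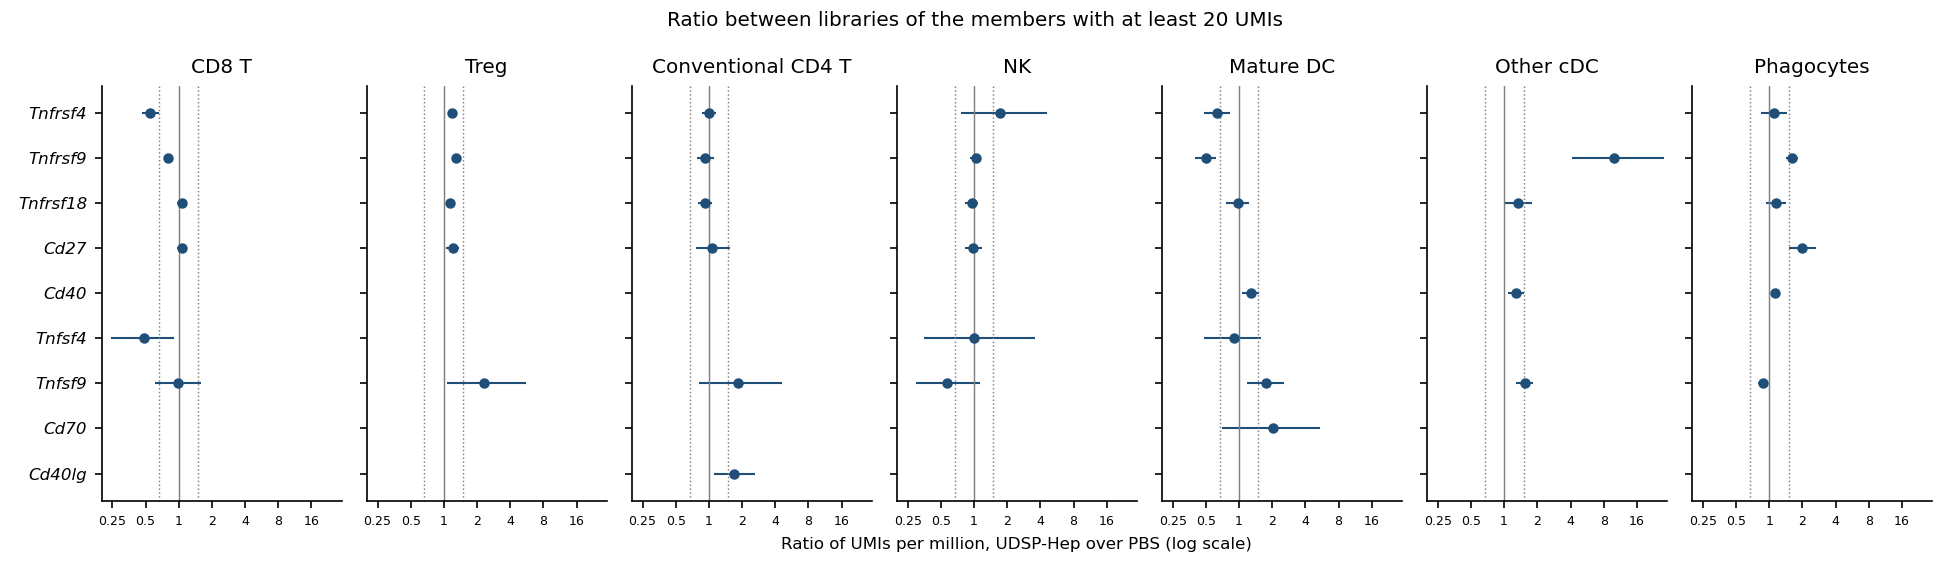
Ratio of levels, UDSP-Hep over PBS, for each of the 9 genes in the classes compared (logarithmic axis, bars are exact 95% intervals for counting error, dotted lines mark 1.5-fold in either direction), for genes with at least 20 UMIs over both libraries. The 4 costimulatory receptors of T cells in regulatory T cells lie between 1.14 and 1.28, and Tnfrsf9 lies at 0.498 in mature dendritic cells and at 1.60 in phagocytes.

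Mature dendritic cells also held receptors best known from T cells, and Tnfrsf9 and Tnfrsf4, but not Tnfrsf18, were lower in the UDSP-Hep library with the gates used here. Tnfrsf9 stood at 263 CPM (786 UMIs) in PBS and 130.7 (96 UMIs) in UDSP-Hep, a ratio of 0.498 (0.398 to 0.616). Tnfrsf4 stood at 137 and 87.1 CPM (410 and 64 UMIs), a ratio of 0.636 (0.481 to 0.830). Tnfrsf18 was at 124 and 121 CPM, a ratio of 0.978 (0.767 to 1.23). Cd3d, Cd3e and Cd3g together were at 4.01 and 5.45 CPM in these cells, a sum that the gate itself keeps low, since cells with 2 or more such UMIs count as T cells. Other markers differed between the libraries in this class: the NK list stood at 12.0 and 58.6 CPM (1 of its 5 genes at 0 in PBS), the C1q genes at 78.9 and 197 CPM with none of the 3 at 0, Lyz2 at 241 and 423 CPM and Cd209a at 46.1 and 10.9 CPM. Their part in the receptor ratios was not tested. Among the ligands, Tnfsf9 stood at 31.7 and 55.8 CPM (95 and 41 UMIs; ratio 1.76, 1.19 to 2.56), Tnfsf4 at 22.7 and 20.4 CPM (68 and 15 UMIs; ratio 0.899, 0.477 to 1.59) and Cd70 at 4.68 and 9.53 CPM (14 and 7 UMIs). Mature dendritic cells were thus the class with the highest Tnfsf4 and held 41.2% and 17.6% of its UMIs. In all, 2 of the 7 measured members (Tnfsf9 and Cd70) were past 1.5-fold and higher and 2 (Tnfrsf4 and Tnfrsf9) lower, beside 14.8% and 10.4% of all genes; the median log2 ratios were -0.03 and 0.08.

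The 2 lower receptors depended on which cells were counted as mature dendritic cells. When cells with markers of more than 1 lineage were kept, the ratio of Tnfrsf9 was 1.12 and that of Tnfrsf4 1.27, and when classes were assigned by the highest marker level the ratio of Tnfrsf4 was 1.17. Over 9 alternatives in processing, the Tnfrsf18 ratio ran from 0.431 to 1.21, so its contrast with the 2 lower receptors also depended on the processing. After thinning, Tnfrsf9 was read in 22.5% and 19.6% and Tnfrsf4 in 12.0% and 5.36% of these cells.

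Tnfsf9, the partner of 4-1BB, had its highest well-measured level in the other conventional dendritic cells, at 60.5 CPM (234 UMIs) in PBS and 92.7 (231 UMIs) in UDSP-Hep, a ratio of 1.53 (1.27 to 1.84). In cDC1, the cross-presenting dendritic cells, it stood at 11.4 and 106 CPM, but the UDSP-Hep value came from 28 UMIs in only 13 cells. Phagocytes held 27.6 and 24.4 CPM of Tnfsf9 (1037 and 600 UMIs; ratio 0.884, 0.798 to 0.978). Tnfsf9 was therefore higher in the UDSP-Hep library in mature and other conventional dendritic cells and slightly lower in phagocytes. The lower value lay in classical monocytes (27.5 and 20.1 CPM, ratio 0.733, 0.620 to 0.863) and in the phagocytes outside the named kinds (38.1 and 28.0 CPM, ratio 0.735, 0.566 to 0.948), while C1q macrophages held 25.4 and 30.1 CPM (ratio 1.19, 1.01 to 1.39). Phagocytes held 55.0% of all Tnfsf9 UMIs in PBS and 34.6% in UDSP-Hep. In other conventional dendritic cells Tnfrsf9 was read at 1.55 and 15.2 CPM (ratio 9.83, 4.12 to 28.4). It came from 6 UMIs in 5 cells and 38 UMIs in 20 cells, 12 of the 38 in 1 cell. The ratio was 2.84 with classes assigned by the highest marker level and 2.86 after thinning. The NK list also went from 13.7 to 39.3 CPM here (1 of its 5 genes at 0 in PBS). The sum of Cd3d, Cd3e and Cd3g went from 4.14 to 7.22 CPM. The part of free RNA from T and NK cells in the Tnfrsf9 ratio was not tested. With Tnfrsf9 and Tnfsf9 past 1.5-fold, 2 of the 4 measured members were higher and none lower in this class, beside 7.39% and 7.11% of all genes, and the median log2 ratios were 0.51 and 0.03.

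In phagocytes 2 of the 6 measured members were past 1.5-fold and higher and none lower, beside 11.5% and 6% of all genes, with median log2 ratios of 0.19 and 0.12. Tnfrsf9 stood at 14.1 and 22.5 CPM (528 and 554 UMIs, ratio 1.60, 1.42 to 1.81). Over 9 alternatives in processing, the ratio ran from 1.15 to 2.08. The shares of thinned phagocytes with a UMI of Tnfrsf9, given above, were nearly alike in the libraries. In UDSP-Hep 92 of the UMIs lay in 1 cell, without which the ratio was 1.40. Phagocytes that were neither C1q macrophages nor monocytes held Tnfrsf9 at 35.8 and 88.6 CPM (ratio 2.48, 2.05 to 3.0), and that same cell gave 92 of their 285 UDSP-Hep UMIs. Classical monocytes held 11.2 and 10.5 CPM. Cd27 stood at 2.32 and 4.64 CPM in phagocytes (87 and 114 UMIs; ratio 2.0, 1.5 to 2.68), a level at which free RNA from T and NK cells cannot be told apart from expression, and after thinning its ratio was 0.687. The NK marker sum in phagocytes moved the same way, from 5.78 to 29.2 CPM, with none of its 5 genes at 0; its part was not tested. Tnfrsf18 (5.97 and 6.92 CPM) and Tnfrsf4 (3.52 and 3.87 CPM) were low in both libraries, and Tnfsf4, Cd70 and Cd40lg had at most 5 UMIs.

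The 3 receptors of chromosome 4 were read together in the same regulatory T cells. After thinning to 1000 UMIs, Tnfrsf4, Tnfrsf9 and Tnfrsf18 were all found in 36.5% of regulatory T cells in PBS (exact binomial 95% interval 29.0 to 44.6) and in 44.6% in UDSP-Hep (37.9 to 51.4). No UMI of the 3 was found in 7.69% and 3.60%. In conventional CD4 T cells all 3 were found in 7.29% and 1.89% (7 of 96 and 4 of 212 cells), and none in 53.1% and 51.9%. Of CD8 T cells 0.738% and 0.429% held all 3, and of NK cells 0 of 406 and 0 of 1308 did. Holding all 3 at this depth was thus mostly a feature of regulatory T cells. The pair Tnfrsf4 and Tnfrsf9 was found in 51.9% and 58.1% of regulatory T cells, where the product of their shares gives 47.4% and 56.2%. In conventional CD4 T cells the pair was found in 12.5% and 4.25%, where the product gives 3.87% and 2.35%.

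**Figure D4:**
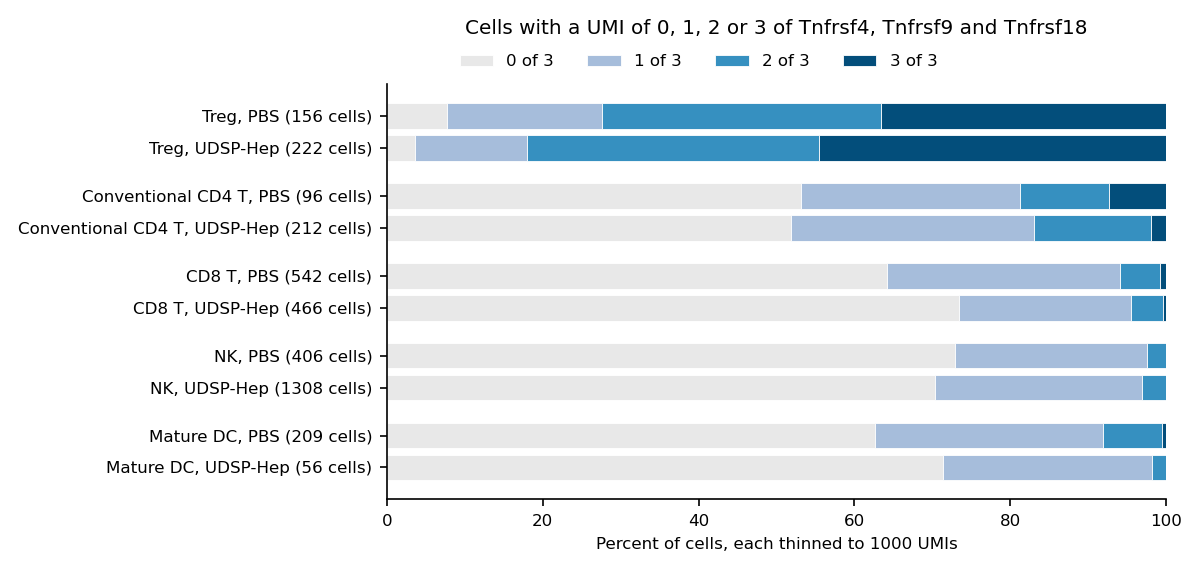
Share of cells in which none, 1, 2 or all 3 of Tnfrsf4, Tnfrsf9 and Tnfrsf18 had a UMI, after thinning each cell to 1000 UMIs, by class and library. All 3 were found in 36.5% (PBS) and 44.6% (UDSP-Hep) of regulatory T cells and in at most 7.29% of the cells of any other class drawn.

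Around the 9 genes, 63 further genes of the TNF superfamily and its signalling were read from a list of 20 receptors, 13 ligands, 11 adapters, 14 genes of the NF-kappaB arm and 5 survival genes. In CD8 T cells 24 of the 52 measured were 1.5-fold or more higher in UDSP-Hep and 1 was lower, beside 14.6% and 11.1% of all genes, with a median log2 ratio of 0.56, in the cells whose memory-leaning share also went from 29.2% to 57.6%. The 63 genes were not read by CD8 state, so the part of that shift in the count was not tested. The 24 higher genes included 8 of 12 receptors, 6 of 10 ligands and 3 of 11 adapters. The rest were 4 of 14 genes of the NF-kappaB arm and 3 of 5 survival genes. The furthest from equality by the near bound of the interval were the decoy-like receptor Tnfrsf26 (9.02 and 32.9 CPM, ratio 3.64), the cytokine lymphotoxin alpha, Lta (7.66 and 22.9 CPM, ratio 2.98), and Tnfaip3 (437 and 944 CPM, ratio 2.16), which encodes A20, a brake on NF-kappaB. Tnfsf13b, the B cell survival factor BAFF, was the lower gene, at 7.49 and 4.70 CPM (44 and 15 UMIs). Its ratio was 0.627 (0.324 to 1.15), with an interval that included 1. In regulatory T cells 9 of 43 were higher and none lower, beside 11.2% and 6.55% of all genes (median 0.15), led by Fasl, the death ligand (13.2 and 42.0 CPM, ratio 3.17), the NF-kappaB inhibitor Nfkbia (892 and 1387 CPM, ratio 1.55) and the survival gene Bcl2 (21.2 and 44.9 CPM, ratio 2.12). The adapter Traf1, which binds 4-1BB, stood at 309.7 and 297 CPM there. In conventional CD4 T cells 11 of 44 were higher and 2 lower, beside 14.5% and 7.47% (median 0.14), among them Tnf (27.0 and 73.6 CPM, ratio 2.72), Bcl2 (175 and 356 CPM, ratio 2.04) and Tnfaip3 (912 and 1483 CPM, ratio 1.63), with Tnfrsf13b lower (66.7 and 30.4 CPM).

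In NK cells 10 of 48 were higher and 2 lower, beside 8.71% and 5.45% of all genes (median 0.22), led by Tnfsf13, the ligand APRIL (9.05 and 24.5 CPM, ratio 2.71), the adapter Traf3 (18.1 and 37.2 CPM, ratio 2.06) and Tnfaip3 (648 and 1044 CPM, ratio 1.61). Mature dendritic cells had 7 of 44 higher and 2 lower, beside 14.8% and 10.4% of all genes (median 0.21), so the higher share was near that of all genes, with Tnfaip3 at 190.1 and 379.9 CPM (ratio 2.0) and Ikbkg, a subunit of the kinase that activates NF-kappaB, at 15.7 and 24.5 CPM, against lower Nfkbib (179.8 and 119.8 CPM) and Ltbr, the lymphotoxin beta receptor (27.4 and 17.7 CPM). In other conventional dendritic cells 4 of 49 were higher and 4 lower, near the 7.39% and 7.11% of all genes (median 0.19), with Nfkbia at 289 and 612 CPM (ratio 2.11), Tnfaip3 at 200.2 and 365 CPM (ratio 1.82) and Traf2, an adapter of most of these receptors, at 26.9 and 16.9 CPM (ratio 0.627). Phagocytes had 8 of 55 higher and 2 lower, near the 11.5% and 6% of all genes (median 0.27), led by Fasl (0.640 and 2.73 CPM), Ltb (3.49 and 8.51 CPM) and Traf1 (33.4 and 53.6 CPM, ratio 1.60), with the decoy-like receptors Tnfrsf23 (21.7 and 8.10 CPM) and Tnfrsf26 (19.5 and 11.3 CPM) lower. At the phagocyte levels of Fasl and Ltb, free RNA from T and NK cells cannot be told apart from expression. Tnfaip3 was past 1.5-fold and higher in 5 of the 7 classes, all but regulatory T cells (ratio 1.18) and phagocytes (1.28). These genes and the 9 members come from the same cells and the same 2 libraries.

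**Figure D5:**
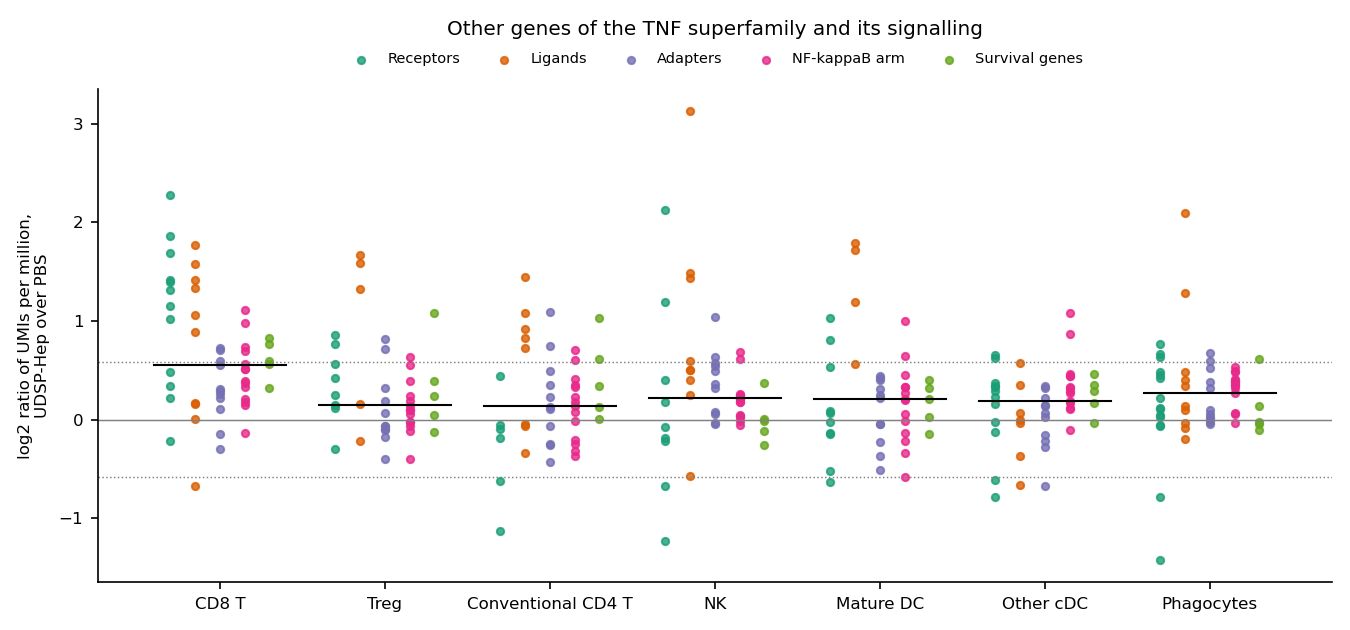
Log2 ratio of levels, UDSP-Hep over PBS, of the measured genes among 63 further TNF superfamily and signalling genes, by class of cells and coloured by family; black bars are medians and dotted lines mark 1.5-fold. The median is 0.56 in CD8 T cells and between 0.14 and 0.27 in the other 6 classes.

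The genes whose levels ran most like those of each member were sought over 33 points (17 classes in up to 2 libraries) by Pearson's r of log2(CPM + 10), as a description; the points share libraries and depth. For Tnfrsf4 they were Il2ra (0.944), the high-affinity interleukin-2 receptor chain, Ikzf4 (0.927), which encodes the factor Eos, and Sdf4 (0.921). Sdf4 ends just before Tnfrsf4 on the same strand (chr4:155992872-156013610), and stood at 1289 and 1349 CPM in regulatory T cells, 685 and 655 in conventional CD4 T cells and 254 and 251 in CD8 T cells, so reads that run from one neighbour into the other cannot be told apart here. Tnfrsf9 ran most like Tnfrsf18 (0.897), Mmd (0.885) and Il2ra (0.865), and Tnfrsf18 most like the costimulatory receptor Icos (0.928) and Il2ra (0.904). Cd27 ran with the antigen receptor signalling genes Lck (0.973), Zap70 (0.960) and Cd247 (0.955), genes that T and NK cells share. Cd40 ran with the maturation marker Cd83 (0.955), Cnn3 (0.942) and the class II gene H2-Aa (0.932), and Tnfsf4 with Fscn1 (0.879), itself a gate gene of mature dendritic cells. Cd40lg ran with Tnfsf11 (0.938), the ligand RANKL, Lgals7 (0.891) and Csf2 (0.868). For Tnfsf9 and Cd70 the likeness was weaker, at most 0.828 (Arl8b) and 0.718 (Slamf1 and Tnfrsf4). With log2(CPM + 1) in place of log2(CPM + 10), 5 of the 27 correlations moved by over 0.1, and some genes named here ranked much lower: Arl8b fell to rank 90 for Tnfsf9, Csf2 to 31 for Cd40lg, Cnn3 to 16 for Cd40, Zap70 to 10 for Cd27, Tnfrsf18 to 7 for Tnfrsf9 and Tnfrsf9 to 22 for Tnfrsf18.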

How the data were processed

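The deposited files hold raw UMI counts per gene and barcode; per the submitters' processing notes, Cell Ranger 7.0.0 and Seurat were named with the mm10 build. Cells needed at least 200 genes, 500 UMIs and under 10% mitochondrial UMIs. Classes were gated on summed marker UMIs (2 of Cd3d, Cd3e and Cd3g for T cells, 3 for NK and dendritic cells, 5 for phagocytes and mature dendritic cells); the thresholds were set after the depth was seen. Cells with markers of more than 1 lineage were left out, which was the treatment of doublets, and cells passing no gate (7.46% and 11.7%) were not used. UMIs were summed per class and library and divided by the class total, with exact Poisson intervals for levels, exact conditional binomial intervals for ratios and Clopper-Pearson intervals for shares (95%). Members with at least 20 UMIs over both libraries count as measured, and a ratio of 1.5-fold or more either way as past. For shares, cells were thinned to 1000 UMIs, leaving out 89 and 234 shallower cells. From the 63 other genes, up to 3 on each side with at least 50 UMIs are named. No p-value was computed. A further gene of the memory list is not reported here and was left out of it. The ratio and its interval were tested on simulated data. The members, lists and comparisons were chosen with earlier results of these data known. Python 3.11.15, numpy 2.4.6, scipy 1.17.1 and scanpy 1.11.5 were used.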

Additional observations from a re-analysis of the deposited data

Results flagged for a closer look

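The ratio of Tnfrsf9 lay on different sides of 1 in neighbouring kinds of antigen-presenting cells with the gates used here. Its ratio of UDSP-Hep to PBS was 0.498 in mature dendritic cells, 9.83 in other conventional dendritic cells and 1.60 in phagocytes, each from 1 library per group, and the difference between the ratios was not tested. In mature dendritic cells the ratio was 1.12 when cells with markers of more than 1 lineage were kept. In other conventional dendritic cells it was 2.84 with classes by highest marker level. In phagocytes it ran from 1.15 to 2.08 over 9 alternatives in processing. The NK list was higher in the UDSP-Hep library in each of these classes, and its part in the ratios was not tested.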

How the results depend on the processing

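Each group is 1 library, so no library could be left out. No paired analysis was possible because each group has 1 library and the labels give no pairing. Of 372 ratios of members recomputed under an alternative, 47 crossed 1, and 8 of those 47 belonged to ratios past 1.5-fold. Apart from these 8, 44 of the 372 moved by more than the counting interval. The 8 were Tnfsf4 in CD8 T cells with states weighed equally (1.03 against 0.488), Tnfsf9 in regulatory (0.703) and conventional CD4 T cells (0.679), Cd40lg in conventional CD4 T cells (0.906) and Cd27 in phagocytes (0.687) after thinning, and, in mature dendritic cells, Tnfrsf4 with cells of more than 1 lineage kept (1.27) or with classes by highest marker level (1.17) and Tnfrsf9 with cells of more than 1 lineage kept (1.12). The number of members past 1.5-fold moved in CD8 T cells from 2 to 1 (thinned), 0 (states weighed equally) and 5 (no count minimum); in regulatory T cells from 1 to 3 (classes by highest marker level), 0 (thinned, or at least 50 UMIs) and 4 (no minimum); in conventional CD4 T cells from 2 to 1 (more than 1 lineage kept, mean of per-cell values, thinned, without the richest cell, at least 50 UMIs); in NK cells from 2 to 1 (thinned) and 0 (at least 50 UMIs); in mature dendritic cells from 4 to 2 (thinned); in other conventional dendritic cells from 2 to 5 (more than 1 lineage kept), 1 (per-cell mean, thinned, at least 50 UMIs) and 6 (no minimum); and in phagocytes from 2 to 5 (highest marker level), 1 (per-cell mean, thinned, median-of-ratios scaling, without the richest cell) and 4 (no minimum). Of the 63 other genes, those past 1.5-fold went from 12 to 7 in NK cells, 9 to 4 in mature dendritic cells and 8 to 5 in other conventional dendritic cells with at least 50 UMIs, and from 10 to 5 in phagocytes with median-of-ratios scaling. Scrublet's highest scores took out 423 and 516 cells, among them 55.3% and 47.2% of the cells with markers of more than 1 lineage. Equal weights for CD8 states, leaving out the richest cell and leaving out cells with Ikzf2 were chosen after seeing the data. The causes of these moves were not tested.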

Other observations

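The Tnfrsf9 of phagocytes lay in few cells, a pattern chosen after its values were seen. In PBS 27 and in UDSP-Hep 21 phagocytes with at least 5 UMIs of Tnfrsf9 held 49.1% and 65.2% of the class's Tnfrsf9 UMIs, at median depths of 10907 and 16605 UMIs. Phagocytes without a Tnfrsf9 UMI had median depths of 8597 and 8887 UMIs. The Tnfrsf9-rich cells carried the nitric oxide synthase gene Nos2 at 951 and 1016 CPM, against 66.5 and 58.9 in those without. The activin gene Inhba was at 781 and 1136 CPM, against 134 and 139. The neutrophil chemoattractant Cxcl1 was at 195 and 235 CPM, against 11.1 and 33.6. Tnfsf9 was also higher, at 58.4 and 51.5 CPM against 27.1 and 23.6. Cd40 was lower in the Tnfrsf9-rich cells, at 52.8 and 42.9 CPM against 74.7 and 84.7. The sum of Cd3d, Cd3e and Cd3g was 8.34 and 5.72 CPM in them and 5.29 and 7.35 CPM in the others, a sum that the gate keeps low in all of them.

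Basophils held Tnfrsf9 at 56.7 and 22.7 CPM (28 and 6 UMIs, of which 15 and 4 lay in 1 cell of each library) and Tnfrsf18 at 14.2 and 75.6 CPM (7 and 20 UMIs) in the PBS and UDSP-Hep libraries, from 104 and 53 cells.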
